A study of Mus musculus with 21 samples.

Results

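The 12 liver tumours described here came from mice treated with anti-PD1, out of 21 tumours on the arrays of the whole series. All 12 were chosen by their labels, which end in PD-1 or PD1, and no measured value entered the choice. The mice were C57BL/6 animals. They were kept for 12 months on CD-HFD, a choline-deficient high-fat diet that brings about steatohepatitis and liver tumours. Anti-PD1 was given over 8 weeks. Every animal in this group had received both the diet and the antibody. The leading number of a label was taken as the mouse and L with a number as the lesion, which gave 7 mice. Mice 608 and 2094 contributed 3 lesions each, mouse 612 contributed 2, and mice 604, 1109, 2097 and 2116 contributed 1 each. The lesion of mouse 1109 had no lesion number, and the design text of the series counts each tumour as a mouse. DNA from formalin-fixed, paraffin-embedded sections was labelled with Cy3 and hybridised against Cy5-labelled DNA of a pool described as liver tails of the same strain, with no dye swap. A DNA copy number array holds no markers of a tissue, so the share of tumour cells in each section was not measured.

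Array comparative genomic hybridisation compares, at each of many short probes, how much DNA of the tumour and of the reference binds. A cell that gains or loses a whole chromosome at division shifts all probes of that chromosome together, whereas a focal amplification or deletion shifts only a few neighbouring ones. Aneuploidy of this kind is common in hepatocellular carcinoma, and mouse autosomes have their centromere at one end, so that the natural unit is the whole chromosome and not an arm. In a pure population with 2 copies of everything else, 3 copies of a chromosome would give a log2 ratio of 0.58 and 1 copy a log2 ratio of -1. Normal cells in the section, a change carried by only part of the tumour cells and damped array ratios all bring these values closer to 0 and cannot be told apart here.

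The measuring unit of the array was a 60-base oligonucleotide. The probes below lie in genes that regulate growth, survival, p53 or cytokine signalling on chromosomes called in at least 1 tumour on the deposited signals, and they are shown because every chromosome value in the text is an average over probes such as these. Each is written 5′ to 3′ on the plus strand, in lower case throughout, with its position in mm9, the build of the array files. By exact match to the GRCm38 reference and its RefSeq annotation, the probes of Mdm4, Mdm2, Jak2 and Egfr overlapped coding exons and those of Myc and Yap1 lay in introns. Whether an overlapping probe lay wholly within its exon was not tested.
Myc, chr15:61818043-61818102: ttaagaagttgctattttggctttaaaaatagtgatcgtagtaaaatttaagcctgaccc
Mdm4, chr1:134905729-134905788: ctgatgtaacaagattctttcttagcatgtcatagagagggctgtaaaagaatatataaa
Yap1, chr9:7975426-7975485: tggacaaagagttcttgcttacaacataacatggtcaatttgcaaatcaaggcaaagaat
Mdm2, chr10:117133007-117133066: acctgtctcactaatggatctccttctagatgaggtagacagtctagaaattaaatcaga
Jak2, chr19:29365738-29365797: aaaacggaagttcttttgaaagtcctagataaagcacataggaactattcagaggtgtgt
Egfr, chr11:16759004-16759063: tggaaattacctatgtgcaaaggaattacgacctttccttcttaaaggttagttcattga

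A single probe said little about copy number. The Myc probe ran from a log2 ratio of -0.36 to 1.38 over the 12 tumours with a median of 0.25, and the Jak2 probe from 0.07 to 0.83 with a median of 0.50. The Jak2 probe was thus above 0 in every tumour, including those in which chromosome 19 as a whole was below 0. The spread between neighbouring probes of 1 array was 0.41 to 0.59 on the log2 scale. Averaging over the 1567 to 4289 probes of an autosome brought the standard error over probes down to 0.0070 to 0.016. This error takes the probes as independent and leaves out trends shared by many probes, such as that with GC content. Lesion 1 of mouse 2094 had autosome values from -0.082 to 0.061 even after a correction for GC content, with no chromosome called. Shifts of a few hundredths within an array were therefore not read as copy number. The spread between mice set the error of any statement on the group.

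The 12 arrays came from 3 slides of 4 arrays, slide 1 with another probe design than slides 2 and 3. Between 65.0% and 99.2% of spots were well above background in the tumour channel, the lowest share being that of lesion 1 of mouse 608. A trend with the GC content of the probe and its surroundings explained 2.92% to 26.1% of the variance over probes. Each result is therefore given on the deposited signals, centred on the median of the array, and after a correction for GC content. Correlations between arrays over shared probes lay between 0.367 and 0.88 and no values were identical, so that no array was a copy of another.

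A chromosome was called gained or lost in a tumour when at least 50% of its probes lay in segments with a mean log2 ratio of at least 0.2 or at most -0.2. Of the 228 pairs of tumour and autosome, 22 were called on the deposited signals, or 9.65%, with 16 gains (7.02%) and 6 losses (2.63%) in 6 tumours of 4 mice. After the correction for GC content 17 pairs were called, or 7.46%, with 12 gains (5.26%) and 5 losses (2.19%) in 6 tumours of 4 mice. Of these, 16 pairs were called in the same direction both times, 12 gained and 4 lost, in 5 tumours of 3 mice. Mouse 608 held 13 of the 16 pairs over its 3 lesions, and without it 5 pairs remained on the deposited signals and 4 after the correction. The 6 tumours without a call after the correction were the only lesion of mouse 604, all 3 lesions of mouse 2094, the lesion of mouse 2097 and lesion 5 of mouse 612. In 3 of 7 mice no whole chromosome was called after the correction.

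**Figure D1:**
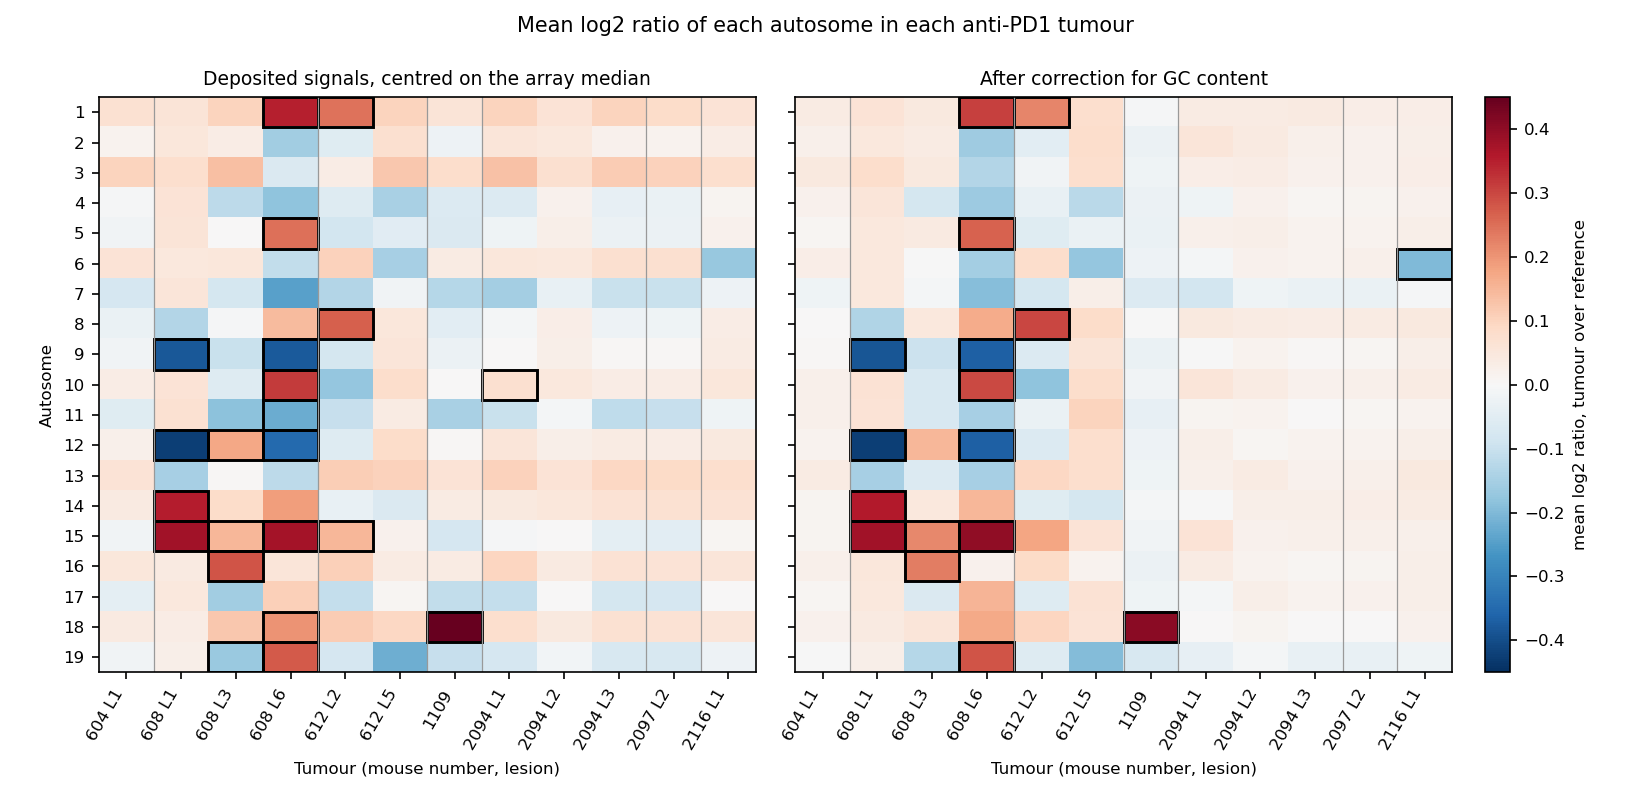
Mean log2 ratio (tumour over reference, colour) of each of the 19 autosomes (rows) in each of the 12 anti-PD1 tumours (columns, grouped by mouse), on the deposited signals (left) and after correction for GC content (right), with a black frame around each whole-chromosome call. The frames gather in the lesions of mouse 608, with 22 frames on the left and 17 on the right.

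Gains outnumbered losses with and without the correction, at 16 to 6 and 12 to 5, but not under every setting. The authors' loess ratios gave 18 gains and 27 losses, probes common to both array designs 14 and 15, normexp background correction 4 and 4, and a minimum share of 0.25 of the chromosome 33 and 50. Before the correction chromosome 15 was called gained in 4 tumours of 2 mice, chromosomes 1, 10 and 18 in 2 tumours of 2 mice each, and chromosomes 5, 8, 12, 14, 16 and 19 in 1 tumour each. Losses were called for chromosomes 9 and 12 in 2 tumours of 1 mouse each, and for chromosomes 11 and 19 in 1 tumour each. After the correction chromosome 15 was called in 3 tumours, all of mouse 608, and chromosome 1 was then the only autosome called in more than 1 mouse. With every array also set to its own most common level, chromosomes 6, 8, 15 and 18 were called in 2 mice as well. Chromosomes 2, 3, 4, 7, 13 and 17 were called in no tumour on the deposited signals or after the correction alone, but were called under other settings. Chromosome 7 was called lost in 5 tumours of 4 mice with the authors' loess ratios and in 6 tumours of 5 mice with common probes. The loess ratios also gave losses of chromosome 15 in 4 tumours of 3 mice. Chromosome 17 was called gained in lesion 6 of mouse 608 with the most common level. It was called lost in 4 tumours of 3 mice with the loess ratios, in 5 tumours of 4 mice with a minimum share of 0.25 and in 1 tumour with common probes.

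**Figure D2:**
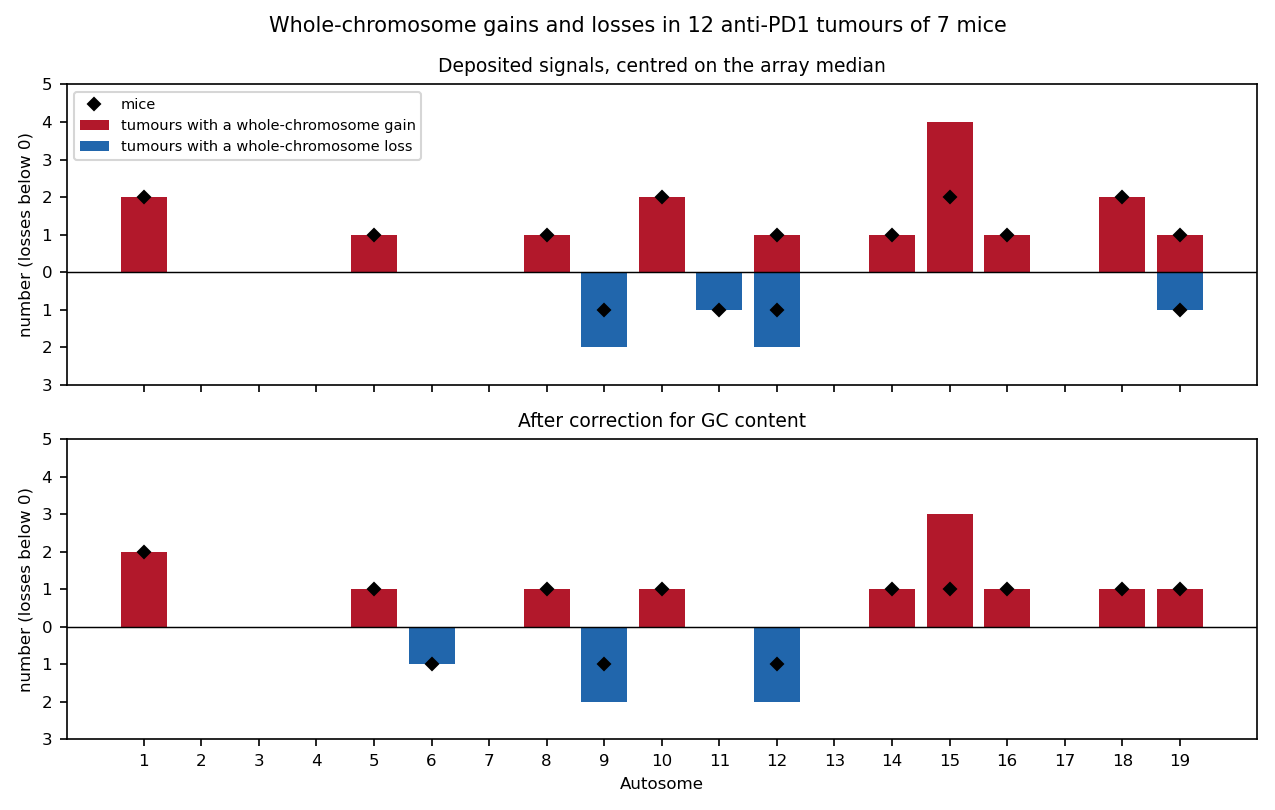
Number of tumours (bars) and of mice (diamonds) with a whole-chromosome gain (above the line) or loss (below the line) for each autosome, on the deposited signals (top) and after correction for GC content (bottom). Chromosome 15 reached 4 tumours of 2 mice at the top and 3 tumours of 1 mouse at the bottom.

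Chromosome 15 carries Myc, the transcription factor that drives growth and whose locus is often amplified in liver cancer. Its mean log2 ratio was 0.38 in lesions 1 and 6 of mouse 608, 0.15 in lesion 3 of the same mouse and 0.15 in lesion 2 of mouse 612. The other 8 tumours lay between -0.08 and 0.02. After the correction the 4 values were 0.38, 0.40, 0.21 and 0.18, and lesion 2 of mouse 612 dropped under the limit. The other 8 tumours then lay between -0.02 and 0.06, so that the 4 tumours stayed apart from them. All 3 lesions of mouse 608 were thus above the tumours of the other mice, although lesion 2 of mouse 612 on the deposited signals was within 0.001 of lesion 3.

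Chromosomes 9 and 12 were lost together, in lesions 1 and 6 of mouse 608. Chromosome 9 had a mean log2 ratio of -0.38 in both lesions and chromosome 12 of -0.42 in lesion 1 and -0.35 in lesion 6. Lesion 3 of the same mouse lay at -0.10 for chromosome 9 and at 0.17 for chromosome 12, on the other side of 0, and was called gained for chromosome 12 before but not after the correction, when it lay at 0.15. The remaining 9 tumours had values between -0.08 and 0.06 for chromosome 9 and between -0.06 and 0.08 for chromosome 12. Lesions 1 and 6 were hybridised on slide 1 and lesion 3 on slide 3. The other tumours on slide 1, of mice 604 and 612, lay at -0.02 and -0.08 for chromosome 9.

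Chromosome 1 was above 0 in all 12 tumours on the deposited signals, from 0.06 to 0.35 with a median of 0.09. Lesion 6 of mouse 608 at 0.35 and lesion 2 of mouse 612 at 0.24 stood apart from the other 10 tumours, which reached 0.10 at most. After the correction these 2 tumours lay at 0.31 and 0.22 and the others between -0.01 and 0.08. The sister lesions did not share the gain, since lesions 1 and 3 of mouse 608 lay at 0.06 and 0.04 and lesion 5 of mouse 612 at 0.08 after the correction.

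Chromosome 18, which carries the Wnt antagonist Apc, gave the highest chromosome value of the group. In the tumour of mouse 1109 its mean log2 ratio was 0.48 on the deposited signals and 0.41 after the correction, and it was the only whole chromosome called in that tumour in both cases. A ratio of 0.41 on the log2 scale corresponds to 1.33 times the reference signal. Lesion 6 of mouse 608 was called as well on the deposited signals at 0.20, and lay under the limit at 0.17 after the correction. The remaining 10 tumours lay between 0.03 and 0.12, and after the correction between 0.00013 and 0.10.

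Chromosome 8 was called gained in lesion 2 of mouse 612 alone, with 0.27 before and 0.30 after the correction. Its next highest value was 0.14 in lesion 6 of mouse 608, and its lowest was -0.13 in lesion 1 of mouse 608, so that lesions of 1 mouse lay on both sides of 0. Chromosome 10 was called gained in lesion 6 of mouse 608 at 0.31. Its lowest value was -0.17 in lesion 2 of mouse 612, and the median of the 12 tumours was 0.04. Chromosome 10 was also called in lesion 1 of mouse 2094 on the deposited signals, although its mean there was only 0.07, with 65.4% of its probes in gained segments. After the correction it lay at 0.05 with no call.

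Further single-tumour gains were confined, among the 12 tumours, to mouse 608. Chromosome 5 reached 0.25 in lesion 6, against -0.08 to 0.06 in the other 11 tumours. Chromosome 19, which carries Jak2 and Cd274, reached 0.27 in lesion 6, whereas the other lesions of that mouse lay at 0.03 and -0.17. The value of -0.17, in lesion 3, was called a loss on the deposited signals only, and lesion 5 of mouse 612 had the lowest value of chromosome 19 at -0.22. Chromosome 14, which carries Rb1, reached 0.35 in lesion 1, against -0.07 to 0.19 elsewhere, with the 0.19 in lesion 6. Chromosome 16 reached 0.28 in lesion 3, against 0.04 to 0.11 elsewhere. In lesion 6, 38.8% of the probes of chromosome 14 lay in gained segments, and with every array set to its most common level after the correction chromosome 14 was called gained in lesion 6 as well.

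Chromosome 6, which carries Met and Braf, was the 1 autosome called after the correction but in no tumour on the deposited signals. Other settings without the correction also called it lost in the tumour of mouse 2116. These were only spots well above background in both channels, a doubled segment penalty and the authors' loess ratios, the last also in lesion 5 of mouse 612. It was not called with normexp background correction or with probes common to both designs. In the tumour of mouse 2116 it lay at -0.17 on the deposited signals, with 45.8% of its probes in lost segments, and at -0.20 after the correction. The other autosomes of that tumour lay within 0.1 of 0 after the correction. The 2 long segments of the chromosome had means of -0.198 and -0.215, separated by 10 probes, so that 1 fell just outside and 1 just inside the limit of 0.2. Lesion 5 of mouse 612 had -0.15 before and -0.17 after the correction with no call either time. On the deposited signals chromosome 6 in the other 10 tumours lay between -0.11 and 0.10.

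Chromosome 11 was called lost in lesion 6 of mouse 608 on the deposited signals, at -0.22, and lay at -0.15 after the correction with no call. Its highest value was 0.07, in lesion 1 of the same mouse. Across the 12 tumours the long segments nearest to the limit of 0.2 after the correction were those of chromosome 6 in mouse 2116, on both sides of it. In all, 25 segments longer than 5 Mb had absolute means between 0.1 and 0.2.

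After the correction, 18 segments longer than 5 Mb passed the limit, and 16 of them held at least 90% of the probes of their chromosome. The 9 other altered segments were shorter than 5 Mb. Each of the 17 called chromosomes was cut into 3 parts of about the same number of probes, as a description, since the call itself requires most probes to lie on 1 side of 0. The parts of a chromosome differed by 0.0041 to 0.079 with a median of 0.048, against a standard error over probes of at most 0.025. Chromosome 9 in lesion 6 of mouse 608 was the flattest, with -0.366, -0.365 and -0.370 from its start to its end. The 18 segments held 1 partial change outside chromosome 6, the last part of chromosome 11 in lesion 5 of mouse 612. It spanned 16.5 Mb (chr11:105212399-121697849, mm9) with 641 probes, 17.8% of those on the chromosome, and a mean of 0.27.

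**Figure D3:**
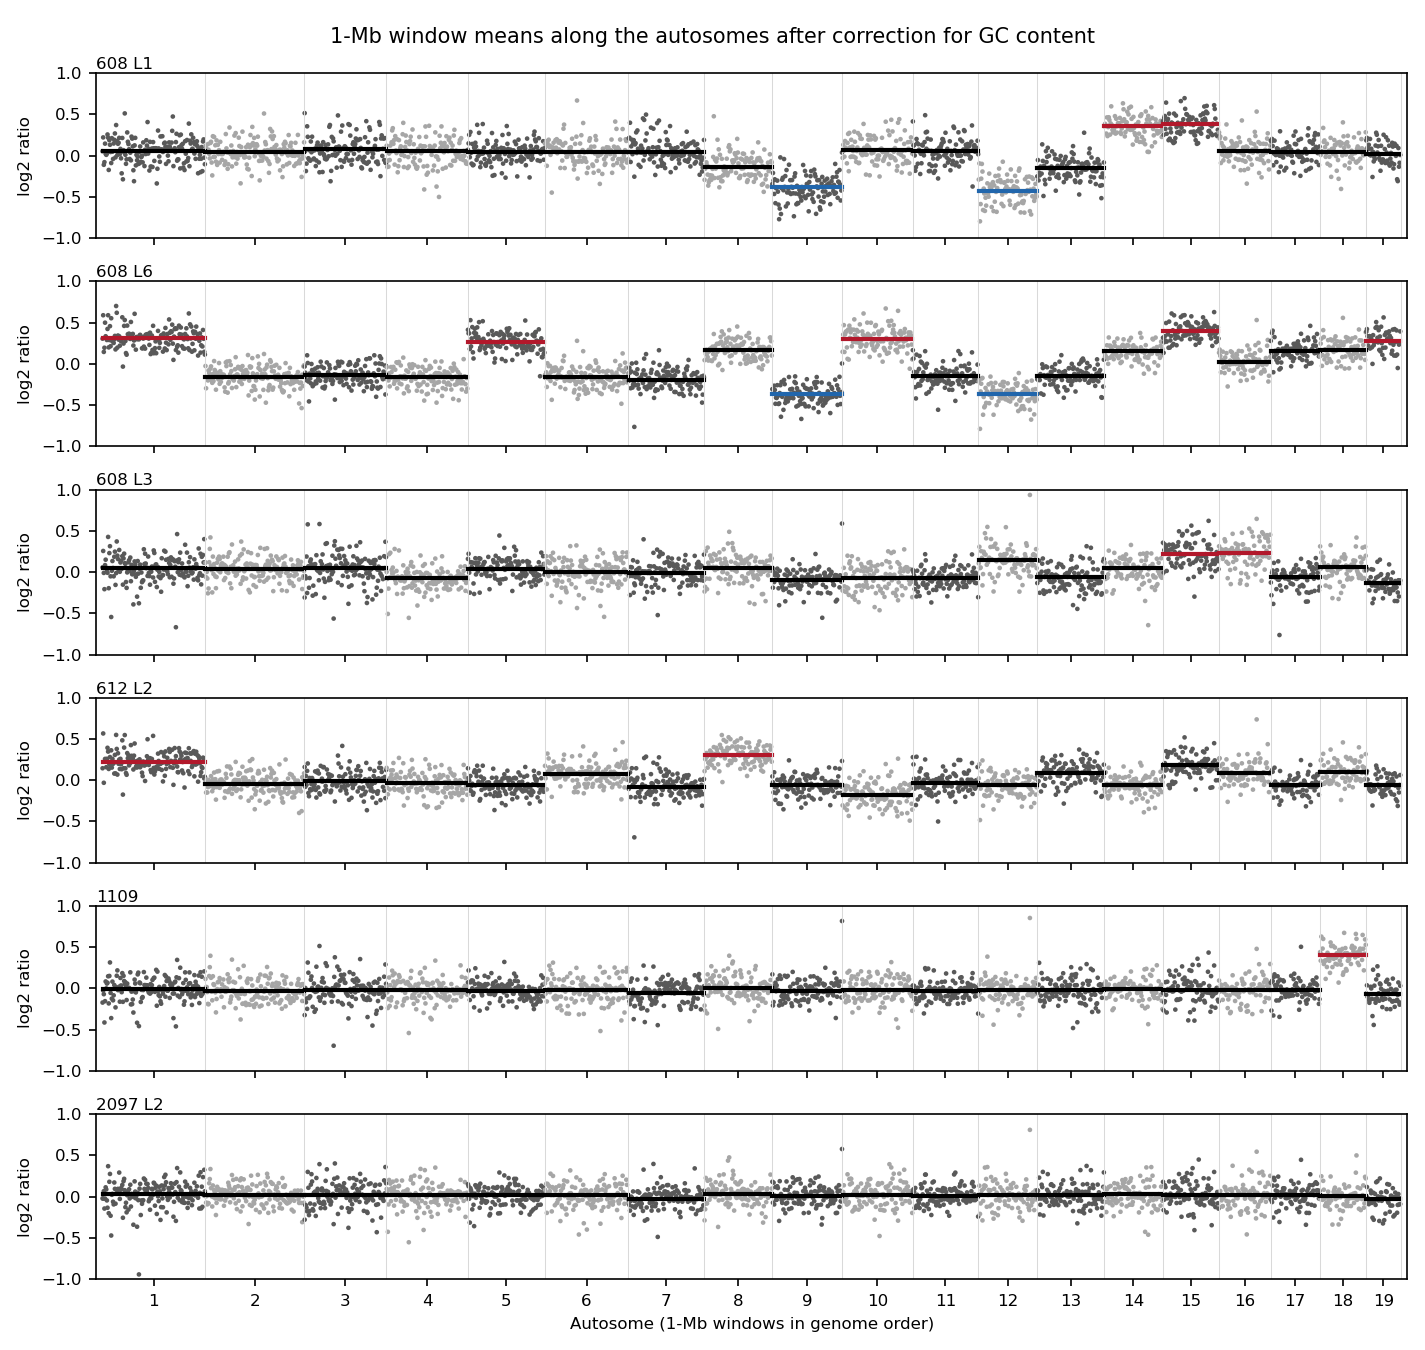
Mean log2 ratio of each 1-Mb window (points, in genome order, shades alternating by autosome) after correction for GC content in 6 of the tumours, with the mean of each autosome as a line that is red for a called gain, blue for a called loss and black otherwise. Windows beyond 1 on the log2 scale, 1 each in the tumours of mice 1109 and 2097, lie outside the axis. The called chromosomes shift along most of their length, whereas the tumour of mouse 2097 stays near 0 throughout.

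Mouse 608 held most of the calls. Lesion 6 had 5 gained (1, 5, 10, 15 and 19) and 2 lost chromosomes (9 and 12) after the correction, lesion 1 had 2 gained (14 and 15) and 2 lost (9 and 12), and lesion 3 had 2 gained (15 and 16). In lesion 6 only 1 of 19 autosomes, chromosome 16, lay within 0.1 of 0. A set of 9 autosomes lay between 0.15 and 0.40, 7 lay between -0.19 and -0.13, and chromosomes 9 and 12 lay at -0.37. The most common level of its 1-Mb windows was -0.16, so that 0, the median of the array, lay between the levels at which its chromosomes gathered. Which of them stood for an unchanged chromosome cannot be told from ratios alone. With every array set to its own most common level, 24 pairs were called in place of 17, an alternative that was chosen after seeing the data. Lesion 1 was the dimmest array of the group, and 18 pairs were called on the deposited signals without it, an alternative also added after seeing the data. Its 4 calls were kept with only spots well above background in both channels, and with normexp background correction it had 0 calls, while lesion 6 had 6.

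Across the 19 autosomes the corrected values of lesions 1 and 6 of mouse 608 correlated with r = 0.62, whereas lesion 3 correlated with them at 0.21 and 0.16. The lesions of mouse 612 correlated at 0.17, with lesion 2 gained for chromosomes 1 and 8 and lesion 5 showing no whole-chromosome call. The 3 lesions of mouse 2094 correlated at 0.77 to 0.90, yet no autosome in them was further from 0 than 0.082. Pairs of tumours from different mice ranged from -0.24 to 0.98 with a median of 0.18 over 59 pairs, so that a high correlation was not restricted to lesions of 1 mouse. These are descriptions over 19 chromosomes that share array, reference pool and GC trend.

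The tumours of mice 604, 2094 and 2097 had no whole-chromosome call after the correction. All their autosome values lay between -0.082 and 0.061 after the correction and between -0.15 and 0.13 before it. Across the 19 autosomes the deposited mean log2 ratio of these tumours correlated with the mean GC content around the probes at r = -0.84 to -0.97, a description over chromosomes of 1 array each. In lesions 1 and 6 of mouse 608 the same correlation was 0.03 and -0.13.

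The share of the autosomal length in gained or lost segments was 17.9% ± 12.1 (SD, n = 7 mice) on the deposited signals, of which 9.75% ± 7.57 was gained and 8.13% ± 4.83 was lost. After the correction it was 5.08% ± 7.49, with 3.59% ± 5.45 gained and 1.49% ± 2.64 lost. By mouse the corrected share was 20.97% in mouse 608, 7.04% in mouse 612, 3.72% in mouse 1109, 3.70% in mouse 2116, 0.088% in mouse 2097, 0.024% in mouse 2094 and 0 in mouse 604. Without mouse 608 the mean of the other 6 mice was 2.43%. Within mouse 608 the lesions ranged from 8.16% in lesion 3 through 19% in lesion 1 to 35.7% in lesion 6.

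**Figure D4:**
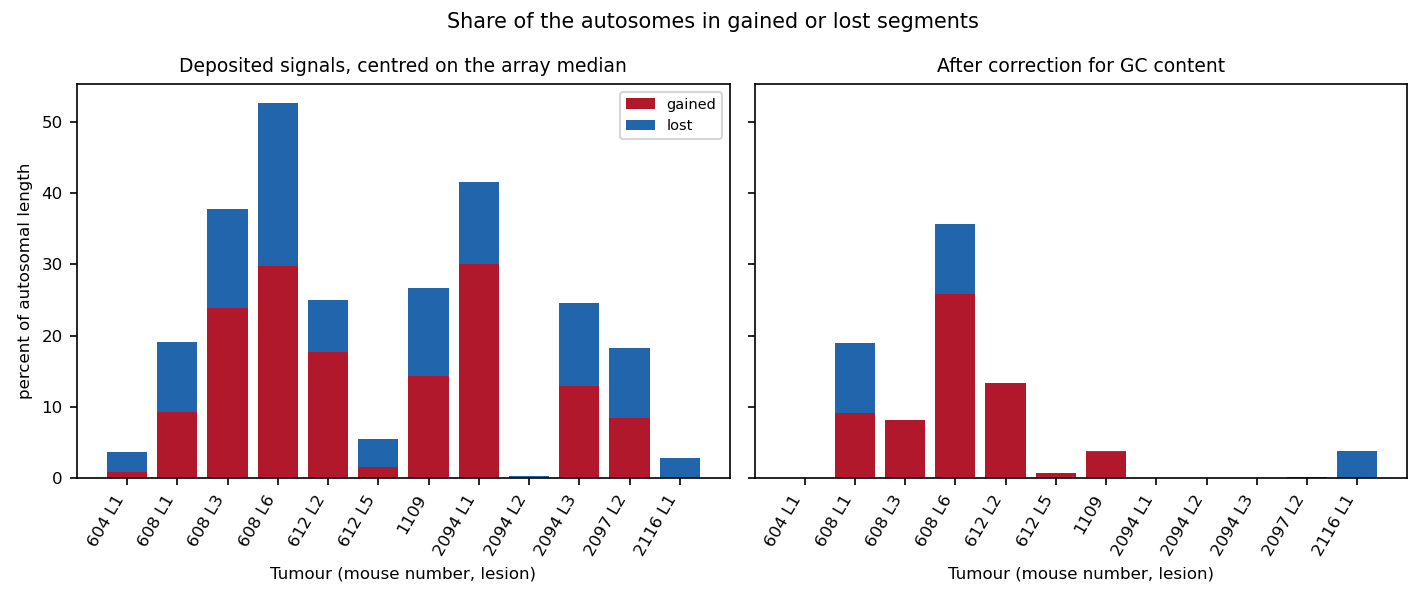
Percent of the autosomal length in gained (red) and lost (blue) segments in each of the 12 tumours, on the deposited signals (left) and after correction for GC content (right). Lesion 6 of mouse 608 was highest both times, at 52.7% and 35.7%, and lesion 1 of mouse 2094 went from 41.6% to 0.024%.

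The order of the tumours depended on the correction. Before it, lesion 1 of mouse 2094 ranked next after lesion 6 of mouse 608 with 41.6%, in 26 gained and 30 lost segments, and it retained 0.024% after the correction. Lesion 1 of mouse 608 changed from 19.1% to 19% with the correction, and had 0% with normexp background correction. Over the 7 mice the altered share on the deposited signals was not shown to follow any of 3 array measures, with exact permutation tests adjusted over the 3. It had r = 0.33 with the noise of the array (Spearman rho = 0.29, p = 0.473 and 0.556, adjusted p = 0.473 and 0.556) and r = 0.48 with the strength of the GC trend (rho = 0.68, exact p = 0.275 and 0.110, adjusted p = 0.412 and 0.329). With the share of tumour spots well above background r was -0.75 (rho = -0.46, exact p = 0.0520 and 0.302, adjusted p = 0.156 and 0.454). Leaving out the 2 mice farthest from the median of the measure gave r = 0.79, 0.59 and -0.25, so that the last relation rested on mice 608 and 2094.

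Whether a chromosome was shifted over the group as a whole was asked of the mean log2 ratio of each autosome against 0. The fit used limma with the mouse as a random block. The estimated correlation within mice was 0.016 on the deposited signals and 0.046 after the correction, so that lesions of a mouse entered almost as independent samples. Without the correction 6 of 19 autosomes passed an adjusted p of 0.05, or 31.6%. Chromosomes 1, 3, 16 and 18 were above 0 and chromosomes 7 and 11 below 0, and for each of the 6 all 7 mouse means lay on the same side. After the correction for GC content 0 of 19 passed, the smallest adjusted p being 0.108, and 3 had an unadjusted p under 0.05. Without mouse 608 the deposited signals gave 10 autosomes and without mouse 2094 they gave 2. With the tumours of slides 1, 2 and 3 fitted alone, with 1 mean per mouse, 0, 11 and 2 autosomes passed, and after the correction 0, 13 and 1. The corrected means over the 4 tumours of slide 2 were small, from -0.042 for chromosome 6 to 0.039 for chromosome 8.

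The shifts behind these calls were small beside those of the called tumours. Chromosome 1 had a fitted mean of 0.11 (SE 0.027, adjusted p = 0.00600) and chromosome 18 of 0.12 (SE 0.032, adjusted p = 0.0105). After the correction they lay at 0.075 with SE 0.027 and adjusted p = 0.108, and at 0.075 with SE 0.031 and adjusted p = 0.161. Chromosome 3 ranged from -0.06 in lesion 6 of mouse 608 to 0.13 with a median of 0.09, and had a fitted mean of 0.081 (SE 0.023, adjusted p = 0.0105), which became 0.018 (SE 0.021, adjusted p = 0.519). Chromosome 16 had 0.077 (SE 0.024, adjusted p = 0.0167) and then 0.041 (SE 0.022, adjusted p = 0.276).

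Chromosome 7, which carries Ccnd1 and Fgf15, ranged from -0.24 in lesion 6 of mouse 608 to 0.06 in lesion 1 of that mouse, with a median of -0.09. Its fitted mean was -0.086 (SE 0.025, adjusted p = 0.0130) and -0.037 (SE 0.022, adjusted p = 0.298) after the correction, with all 7 mice below 0 in both cases. Chromosome 11, which carries Trp53, Egfr and Sqstm1, ranged from -0.22 to 0.07 with a median of -0.10. Its fitted mean was -0.079 (SE 0.027, adjusted p = 0.0229) and -0.0036 (SE 0.022, adjusted p = 0.921) after the correction, when 5 of 7 mice lay above 0. Over the 19 autosomes the mean of the 7 mice correlated with GC content at r = -0.82 on the deposited signals and at -0.24 after the correction. Chromosome 11 had the highest GC content around its probes, 45.4%, and chromosome 3 the lowest, 41.7%.

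**Figure D5:**
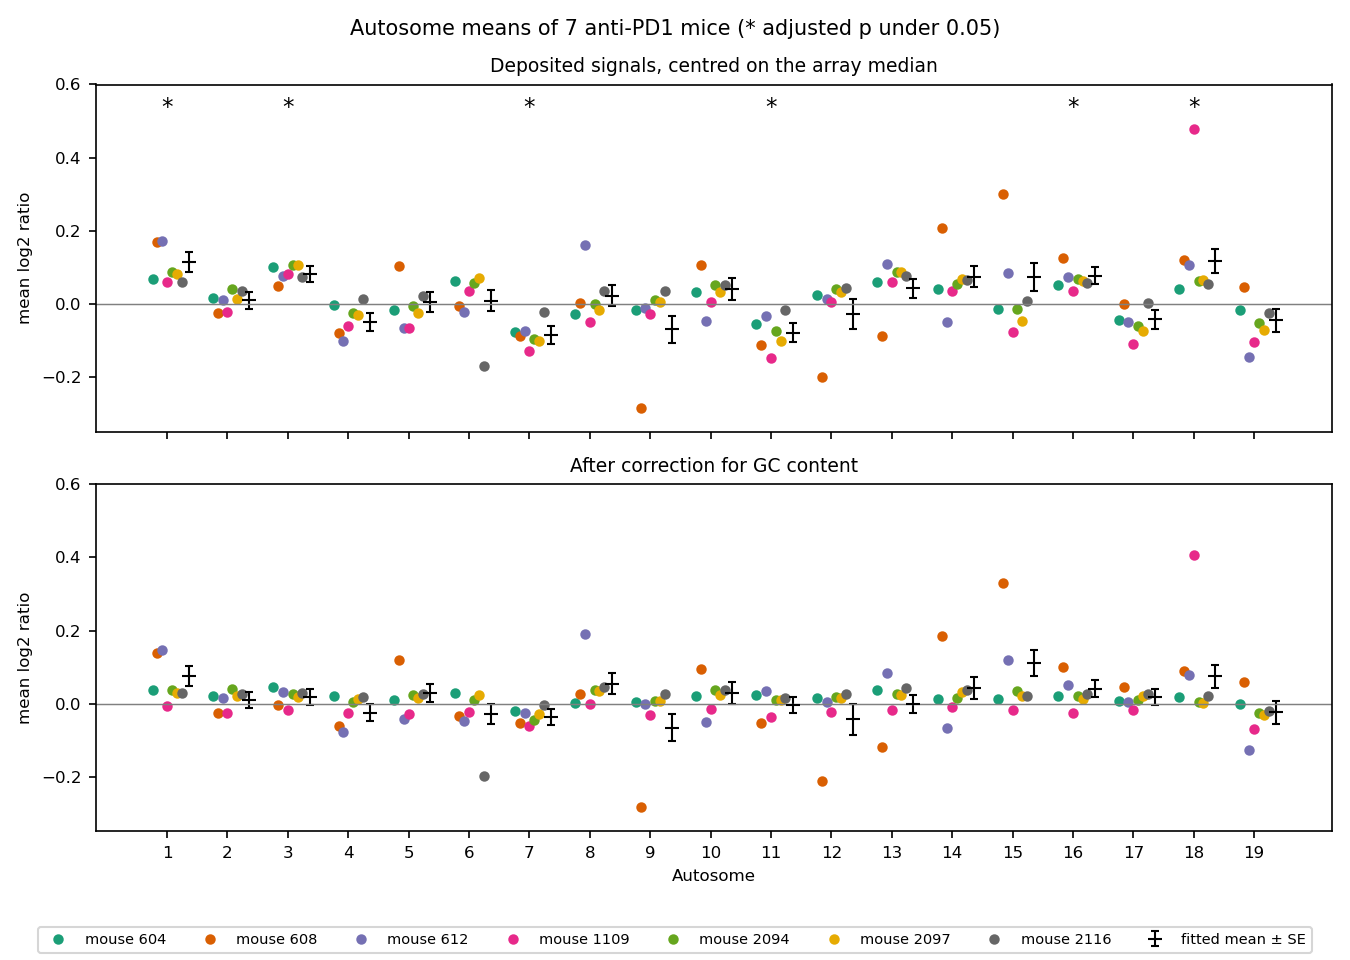
Mean log2 ratio of each autosome in each of the 7 mice (coloured points, lesions of a mouse averaged) and the limma fitted mean with its standard error (black), on the deposited signals (top) and after correction for GC content (bottom), with an asterisk at adjusted p under 0.05. The 6 asterisks at the top stand over chromosomes whose 7 mice lie on 1 side of 0, and none stands at the bottom, while single mice lie far from the rest at chromosomes 6, 8, 9, 12, 15 and 18.

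Chromosomes 9, 12 and 15 did not pass in this fit. Chromosome 15 had a fitted mean of 0.073 (SE 0.038, adjusted p = 0.127) and, after the correction, 0.11 (SE 0.036, adjusted p = 0.108). Chromosome 9 had -0.070 (SE 0.036, adjusted p = 0.127) and chromosome 12 had -0.029 (SE 0.041, adjusted p = 0.583). Chromosome 18, which did pass, also held the highest value of a single mouse, and without mouse 1109 its fitted mean was 0.083 (adjusted p = 0.00917). With 1 mean per mouse in the fit chromosome 18 had 0.13 (adjusted p = 0.0605). Chromosomes 9, 12 and 15 differed between slides on the deposited signals, 3 of 19 or 15.8%, with adjusted p = 0.0219 for chromosomes 12 and 15 and 0.0232 for chromosome 9, and no autosome differed after the correction, the smallest adjusted p being 0.0584 (3 with an unadjusted p under 0.05). The 2 tumours with these losses were both on slide 1, so that slide and tumour cannot be told apart in that test.

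At the finer scale of 1-Mb windows, 1284 of 2107 windows, or 60.9%, differed from 0 on the deposited signals, 865 above (41.1%) and 419 below (19.9%). After the correction 804 windows passed, or 38.2%, with 474 above (22.5%) and 330 below (15.7%). The median of all window means was 0.052 on the deposited signals and 0.011 after the correction. The numbers above and below 0 are therefore not numbers of gains and losses. Between slides 443 windows differed before and 438 after the correction, or 21% and 20.8%. By segments, 742 windows were gained and 389 lost in at least 2 mice on the deposited signals, and 168 and 2 after the correction. A region lost in 6 of 7 mice on the deposited signals (chr10:79000001-81000000, mm9) had a mean of -0.51 and, after the correction, of -0.020 with no mouse called. The same held for chr7:51000001-54000000, at -0.32 and -0.036, and for chr11:114000001-122000000, at -0.27 and -0.010. Of the gained regions, chr1:151000001-152000000 was called in 5 mice at 0.48 and in 2 mice at 0.29 after the correction. It passed the limma test both times (highest adjusted p = 0.00011), as did 60.9% and 38.2% of all windows. The regions were picked from the same arrays as those called in the most mice, so that the test is no separate evidence for them. The region chr11:29000001-31000000 was called in 5 mice at 0.41 and in none at 0.23. After the correction the region lost in the most mice was chr8:3000001-5000000, in 3 mice at -0.13, with a highest adjusted p of 0.0924.

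The listed liver cancer genes were read as the mean of all probes within 500 kb, and 29 of the 33 described here had a named probe. For Cdk4, Hras, Cdkn2b and B2m no value is given. Of the 29 genes, 18 lay in a window past the threshold on the deposited signals (7 above and 11 below 0) against 60.9% of all windows, and 11 after the correction (9 above and 2 below) against 38.2%. The median of their 29 means was -0.012 before and 0.035 after the correction, and that of all windows was 0.052 and 0.011. Inside segments, 13 of 348 pairs of gene and tumour were gained and 8 lost after the correction, or 3.74% and 2.3%, where 5.04% and 2% of all window and tumour pairs were. On the deposited signals 8.62% of the gene pairs were gained and 20.1% lost, against 11.7% and 9.63% of the windows.

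Among growth and cell cycle genes the corrected calls followed the chromosomes. Myc was in a gained segment in all 3 lesions of mouse 608, with local means of 0.36, -0.01 and 0.35 in lesions 1, 3 and 6. In the 7 other tumours on slides 2 and 3 the Myc neighbourhood lay between -0.26 and -0.14, although chromosome 15 as a whole was near 0 there, and on slide 1 mice 604 and 612 had -0.01 and 0.15. Mdm4, an inhibitor of p53 on chromosome 1, was gained in lesion 6 of mouse 608 at 0.39 and in lesion 2 of mouse 612 at 0.31, against -0.01 to 0.18 in the other 10 tumours. Mdm2, the p53 ubiquitin ligase on chromosome 10, was gained in lesion 6 of mouse 608 at 0.48, with -0.04 to 0.30 elsewhere. Ccnd1, which encodes cyclin D1, and Mcl1, a survival factor, were in no called segment after the correction, and Ccnd1 went from 8 tumours called lost to none.

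None of the 4 measured growth factor receptor and RAF genes was in a called segment after the correction. Of all 2107 windows, 923 were then gained and 293 lost in at least 1 mouse. Met, the hepatocyte growth factor receptor, was called gained in 6 tumours on the deposited signals, with a mean of 0.17 that became 0.085. Braf, a kinase downstream of such receptors, lay at -0.13 in the tumour of mouse 2116 and in lesion 5 of mouse 612 after the correction. Both had chromosome 6 below 0, and Braf lay between 0.07 and 0.32 in the other 10 tumours. Among the latter was lesion 6 of mouse 608 at 0.07, although its chromosome 6 lay at -0.15. Egfr, the epidermal growth factor receptor, had a mean of 0.030 before and -0.075 after the correction, and Fgfr4, the receptor of the bile acid signal Fgf15, had -0.19 and 0.050.

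Yap1, the effector of the Hippo pathway, and Birc2, an inhibitor of apoptosis, sit side by side at the start of chromosome 9 and were lost with it. Yap1 lay at -0.46 and -0.43 in lesions 1 and 6 of mouse 608 and between -0.16 and 0.11 in the other 10 tumours after the correction. Ctnnb1, which encodes beta-catenin, at the far end of the same chromosome, lay at -0.32 and -0.25 in these lesions and between -0.03 and 0.13 elsewhere. Keap1, the repressor of NRF2, lies between them and had -0.27 and -0.35, but lesion 3 of the mouse had -0.24 and the remaining tumours -0.17 to -0.0042. Axin1, a scaffold of the beta-catenin destruction complex on chromosome 17, went from 7 tumours called lost and a mean of -0.20 to none and 0.11. Apc on chromosome 18 had 0.49 in the tumour of mouse 1109 and -0.06 to 0.21 elsewhere.

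Of the 3 genes of the p62 and NRF2 group, Nfe2l2, which encodes NRF2, lay above 0 in all 7 mice, with a mean of 0.20 before and 0.13 after the correction and a window adjusted p of 0.00037 in the latter. Keap1 lay below 0 in all 7 mice, with means of -0.33 and -0.11 and an adjusted p of 0.0104 after the correction. Sqstm1, which encodes p62, had -0.10 and then -0.0073, with an adjusted p of 0.0760. Thus 2 of the 3 windows passed the threshold after the correction, where 38.2% of all windows passed. Neither Nfe2l2 nor Sqstm1 was in a called segment after the correction.

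No tumour suppressor of the list was in a lost segment after the correction, where 293 of all 2107 windows were lost in at least 1 mouse. Trp53 had a mean of -0.29 on the deposited signals, below 0 in all 7 mice and lost in 4 tumours, and of -0.068 after the correction, with values from -0.15 to -0.0013 in the 12 tumours. Arid1a, a chromatin remodeller, went from -0.29 and 8 tumours lost to -0.080 and none, and its window kept an adjusted p of 0.0025. Rb1 on chromosome 14 had 0.51 in lesion 1 of mouse 608, where it was gained, and 0.03 to 0.37 elsewhere, all 12 tumours being above 0. Cdkn2a, the p16 and p19 locus, lay between -0.16 and 0.10 with no call. Tsc1 and Tsc2, which restrain mTOR, were called lost in 8 and 7 tumours, respectively, on the deposited signals and in none after the correction, with means of -0.14 and -0.23 that became 0.040 and 0.035. Of the 6 measured suppressors, 6 windows passed the threshold before the correction (2 above and 4 below 0) and 2 after it (Rb1 above and Arid1a below), where 60.9% and 38.2% of all windows passed.

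Of the 5 measured genes of the PD1 axis and of interferon signalling, 4 were in a gained segment after the correction and none was in a lost one. All 4 were gained in lesion 6 of mouse 608, where 25.8% of the autosomal length lay in gained segments. Of all 2107 windows, 923 were gained and 293 lost in at least 1 mouse after the correction. Cd274, which encodes PD-L1, and Jak2 lie close together on chromosome 19 and were gained in lesion 6 of mouse 608 alone, at 0.26 and 0.28 after the correction. In the other 11 tumours Cd274 lay between -0.17 and -0.0071 and Jak2 between -0.13 and 0.04. Chromosome 19 as a whole was gained in lesion 6, so that both genes were read within that gain. Pdcd1, which encodes PD1, was in a gained segment of chromosome 1 in lesion 6 of mouse 608 at 0.19 and in lesion 2 of mouse 612 at -0.01, a value near 0 within a gained chromosome. Ifngr1, the interferon-γ receptor chain on chromosome 10, was gained in lesion 6 of mouse 608 at 0.40, with -0.09 to 0.27 elsewhere. Jak1 on chromosome 4 lay between -0.24 and -0.03 with no call.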

How the data were processed

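Agilent 2-colour arrays of 12 anti-PD1 tumours were analysed. The authors deposited scanner output of Feature Extraction 11.0.1.1, with background-subtracted, dye-normalized processed signal intensity per channel and its log10 ratio (LogRatio), and a series table of log2 ratios after loess normalization. The 9 arrays of untreated mice were not used. The log10 ratios equalled the quotient of the processed signals, with the sign turned, within 0.001 in 99.6% to 100.0% of spots.

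Control spots and outlier flags (88 to 199 spots) were left out and log2 of tumour (Cy3) over reference (Cy5) was taken. Each array was centred on its median over all remaining probes, sex chromosomes included. Autosomal probes (51756 to 52393) were then kept. For the GC correction a quadratic surface over probe GC and regional GC (50 kb around the exact match in GRCm38, found once for 99.7% of probes) was fitted per array. The corrected values were centred on their median over autosomal probes. Segments came from optimal partitioning (penalty 3 times the noise variance times the log of the probe number, at least 10 probes). Autosome means and 1-Mb windows with at least 5 probes were tested with limma 3.58.1 (R 4.3.3), with the mouse as a random block and Benjamini-Hochberg adjustment. The fits and segmentation were tested on simulated data. The precision is limited by the number of arrays, and array ratios carry no count depth. Nothing in the labels says that the lesions of a mouse grew independently, and p-values measure the spread between these samples. The text names every autosome past the threshold or called in a tumour, up to 3 regions gained and 3 lost in the most mice, and a gene list, all chosen with earlier results of these data known. One region and some genes that this rule names are not reported here. Alternatives covered the GC trend, normalization, background correction, dim spots, array design, centring, blocks, weights, thresholds and mice left out. The series table served as an alternative only.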

Additional observations from a re-analysis of the deposited data

Results flagged for a closer look

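Over 69 sets of 7 mouse means (19 autosomes and the altered share before and after the correction for GC content, and 29 genes), 21 had a mouse whose gap to the next was large beside the range of the set by Dixon's test, where chance flags about 1 in 20.

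Mouse 608 stood apart on most. On the deposited signals its mean log2 ratio was -0.29 for chromosome 9 (other mice -0.027 to 0.035), -0.20 for chromosome 12 (0.0037 to 0.044), -0.088 for chromosome 13 (0.060 to 0.11), 0.30 for chromosome 15 (-0.077 to 0.084) and 0.13 for chromosome 16 (0.035 to 0.073). After the correction it was -0.28 for chromosome 9, -0.21 for chromosome 12, 0.12 for chromosome 5, 0.19 for chromosome 14 and 0.33 for chromosome 15. Its altered share after the correction was 20.97%, against 0 to 7.04% in the other mice. This mouse holds the dimmest array of the group, lesion 1, which kept its 4 whole-chromosome calls with only spots well above background and had 0 with normexp background correction.

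Mouse 2116 stood apart for chromosome 6, at -0.17 before and -0.20 after the correction. Mouse 612 stood apart for chromosome 8, at 0.16 and 0.19, with 1 of its 2 lesions carrying the gain. Mouse 1109 stood apart for chromosome 18, at 0.48 and 0.41. Among the genes on the deposited signals, Apc in mouse 1109 lay at 0.50 (other mice -0.051 to 0.17), Braf in mouse 2116 at -0.13 (0.028 to 0.14), Fgf15 in mouse 2116 at 0.068 (-0.27 to -0.14) and Pdcd1 in mouse 604 at -0.23 (-0.062 to 0.044).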

How the results depend on the processing

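No paired analysis was possible because all 12 tumours belong to 1 group and were compared with a reference pool, so that no replicate number is shared between groups. The 6 autosomes past the threshold became 0 after the correction for GC content, with or without centring on the most common level, 0 after the median profile of the tumours was subtracted (which by construction removes what the tumours share) and 10 with array weights. Without 1 mouse they numbered 2 (without mouse 2094) to 10 (without mouse 608), and 0 with the correction. By slide alone they were 0, 11 and 2, and with the correction 0, 13 and 1. The exact sign-flip test of the 7 mouse means, whose smallest two-sided p is 0.0156, gave the same number, 6. Each of the 6 lay at that smallest p, with an adjusted p of 0.0495. Means that changed sign were those of chromosomes 3 (-0.012), 7 (0.0011), 11 (0.0033) and 16 (-0.0022) after the median profile was subtracted, and of chromosome 11 after the correction with the most common level (0.0046), without mouse 608 (0.012) and on slides 2 (0.011) and 3 (0.00080) alone. Leaving out 1 mouse gave chromosome 11 means of -0.088 (without mouse 612) to 0.012 (the latter with the correction). Windows past the threshold numbered 804 after the correction, 311 with windows of 5 Mb and 1097 to 1378 without 1 mouse. Between slides 0 autosomes differed after the correction in place of 3. The 22 whole-chromosome calls became 45 with the authors' loess ratios, 8 with normexp (of which 7 in mouse 608 and 0 in its lesion 1), 80 and 13 with thresholds of 0.1 and 0.3, 83 with a minimum share of 0.25 of the chromosome, 37 and 10 with the correction and those thresholds, 5 to 22 without 1 mouse and 4 to 17 without 1 mouse (lowest without mouse 608 both times) after the correction. The altered share of 17.9% became 5.08% with the correction, 5.39% with the median profile subtracted, 48.5% at a threshold of 0.1, 2.87% with the correction at 0.3, 14.8% to 20.4% without 1 mouse and 2.43% to 5.92% without 1 mouse after the correction. Its relation to the GC trend turned to r = -0.29 for the corrected share and reached r = 0.90 at a threshold of 0.1 (exact permutation test, adjusted p = 0.0179). The means around Ccnd1 (0.10), Fgfr4 (0.050), Fgf15 (0.090), Ctnnb1 (0.042), Axin1 (0.11), Cdkn2a (-0.031), Tsc1 (0.040) and Tsc2 (0.035) changed sign with the correction, that of Fgfr4 with probes from a shorter distance (0.031) and that of Sqstm1 with the loess ratios (0.11). Of the other gene values under alternatives, 104 stayed within the spread between mice and 31 moved beyond it. Beyond the GC correction itself the causes of these changes were not tested.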

Other observations

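The autosome profiles of lesion 3 of mouse 2094 and the lesion of mouse 2097, which come from different mice on slide 2 and had no whole-chromosome call, correlated with r = 0.998 over the 19 autosomes on the deposited signals and 0.979 after the correction. Of the 59 pairs of tumours from different mice, this was the highest value both times. Over probes no pair of arrays correlated above 0.88.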
